A study of Mus musculus with 14 samples.

Results

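S100a8, S100a9, Retnlg, Lrg1, Stfa2l1, Wfdc17 and Cxcr2 are 7 genes that mouse neutrophils express strongly late in maturation or after leaving the marrow. They were taken by symbol, through their Ensembl IDs, from the 49583 genes of a deposited expression table, and all 7 had a value. RNA of sorted C57BL/6 wild type mouse cells was sequenced in 14 samples, 2 in each of 7 groups. Spleen Ter cells (Ter-119+ CD45- Lin-) came from the spleen of mice that carried a tumour, and liver Ter cells were sorted with that gate from embryonic liver at E14.5. Bone marrow gave the CMP, MEP, HSC and CLP groups, and the control was CD45+ Ter-119- cells from the spleen of mice with a tumour. The labelled gates were c-Kit+ FcγRlo CD34- Lin- IL-7R- Sca-1- for CMP (common myeloid progenitors), the same with CD34+ for MEP (megakaryocyte-erythroid progenitors), c-Kit+ Sca-1+ Lin- for HSC (stem cells) and c-Kit+ Sca-1+ IL-7R+ Lin- for CLP (common lymphoid progenitors). A sorted purity above 98% was stated for each.

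Neutrophils are short-lived white cells that carry ready-made defence proteins to sites of infection or injury. S100A8 and S100A9 pair into calprotectin, which fills much of their cytosol, binds calcium, zinc and manganese, and when set free acts as an alarmin, a danger signal read by TLR4 and RAGE on other cells. CXCR2 is the chemokine receptor that draws mature neutrophils out of the marrow into the blood. The other members encode secreted proteins (resistin-like gamma and LRG1, a glycoprotein that modifies TGF-beta signalling in endothelium) and protease inhibitors (a stefin and a whey acidic protein domain protein). In marrow and spleen these transcripts are taken as marks of late neutrophils, while granule genes such as Ltf and Camp are made at an earlier stage. In these data S100a8 and S100a9 were highest in the same group as Ltf and Camp, so the alarmin pair does not set these stages apart.

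The table gave 1 mean per gene and group in FPKM, fragments scaled to transcript length and library size. For spleen Ter, liver Ter, CMP and MEP the 2 libraries behind each mean could be recovered from its digits. The deeper of each pair is library A and the other library B, with fitted depths of 13.4 M to 28.5 M fragments. Control, HSC and CLP have means alone, of unknown depth and error. Whether a group's 2 samples are from different mice is not stated, so p-values measure only the spread between libraries, which may be technical. The 2 spleen Ter libraries stood apart from each other, with 27.8% of genes over 2-fold apart, against 1.1% to 2.4% in the other 3 groups.

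Labels of 2 columns went against their data. The column labelled MEP held 81035 FPKM summed over 14 secondary and tertiary granule genes, with Ngp at 34069 and Camp at 14922 FPKM. Only 4 of 12 erythroid markers reached 1 FPKM there, and the erythroid factors Klf1 and Gata1 were at 1.26 and 0.928 FPKM. Cd34 was at 29.7 FPKM in CMP, whose labelled gate is CD34-, and at 0.0694 FPKM in the column labelled MEP, whose labelled gate is CD34+. The CMP column thus also goes against the CD34 sign of its gate, though the stated signs of these 2 gates are the reverse of the usual ones. CMP below means the column with that label. The MEP column is called the column labelled MEP, and no direction against it is read as one against megakaryocyte-erythroid cells. The spleen Ter column matched its label in its globin transcripts (13.7% of all FPKM), and also held markers of other cells: the summed level was 10037 FPKM for granule genes, 775 for monocytes and macrophages, 1131 for B cells and 211 for T and NK cells. In liver Ter the same sums were 111, 15.1, 1.53 and 0.0806 FPKM. All 5 B cell and all 7 T and NK cell markers reached 1 FPKM in spleen Ter and none of them did so in liver Ter. Their part in the results was not tested. In sorted bulk cells, fewer cells of a type and less RNA per cell cannot be told apart.

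**Figure D1:**
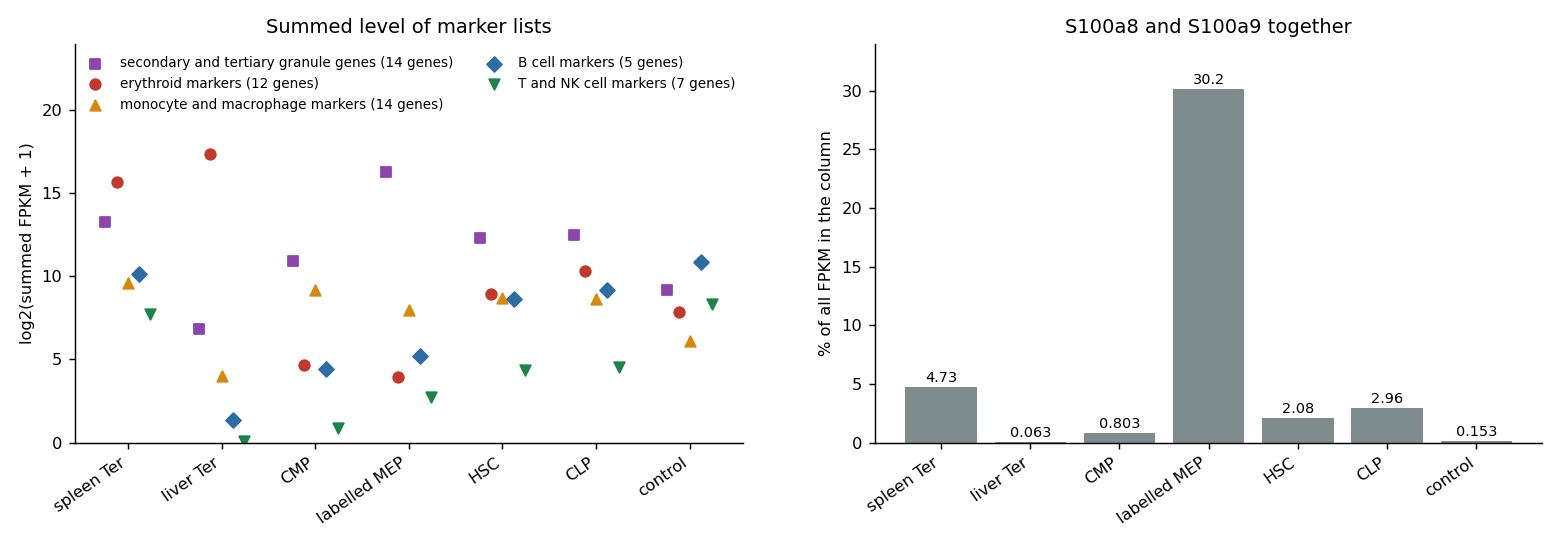
Left, the summed FPKM of 5 marker lists in each of the 7 groups, as log2(sum + 1). Right, S100a8 and S100a9 together as a percentage of all FPKM in a column. The granule list peaks in the column labelled MEP (81035 FPKM), the same column in which the alarmins hold 30.2% of all FPKM, and the erythroid list is high in both Ter groups.

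The promoters of 4 members are shown, each with 250 bases before and 50 after the RefSeq gene start (GRCm38.p6). S100a8 (chr3:90668821-90669120, plus strand) and S100a9 (chr3:90695672-90695971, minus strand) are the pair whose levels tracked each other over the columns. Wfdc17 (chr11:83703806-83704105, plus strand) and Stfa2l1 (chr16:36156561-36156860, plus strand) are the pair whose patterns departed from the rest. Capitals mark matches on either strand to TTGCNNAA (the core bound by C/EBP factors), GAGGAA (bound by PU.1) and TATAAA (the TATA box).
S100a8: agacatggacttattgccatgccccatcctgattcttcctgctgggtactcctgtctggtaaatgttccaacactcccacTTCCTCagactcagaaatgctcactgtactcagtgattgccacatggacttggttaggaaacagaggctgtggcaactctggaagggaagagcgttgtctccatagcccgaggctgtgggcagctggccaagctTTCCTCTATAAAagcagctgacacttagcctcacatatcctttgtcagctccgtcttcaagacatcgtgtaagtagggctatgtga
S100a9: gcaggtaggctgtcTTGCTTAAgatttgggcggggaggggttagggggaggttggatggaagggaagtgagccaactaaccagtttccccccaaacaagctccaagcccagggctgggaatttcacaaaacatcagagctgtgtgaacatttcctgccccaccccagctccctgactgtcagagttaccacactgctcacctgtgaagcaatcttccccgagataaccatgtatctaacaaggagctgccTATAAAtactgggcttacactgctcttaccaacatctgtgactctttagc
Wfdc17: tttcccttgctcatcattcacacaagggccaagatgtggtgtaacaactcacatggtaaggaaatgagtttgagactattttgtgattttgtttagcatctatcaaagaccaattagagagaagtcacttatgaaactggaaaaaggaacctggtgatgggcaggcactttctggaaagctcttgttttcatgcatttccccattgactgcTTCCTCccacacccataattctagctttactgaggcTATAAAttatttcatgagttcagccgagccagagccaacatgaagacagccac
Stfa2l1: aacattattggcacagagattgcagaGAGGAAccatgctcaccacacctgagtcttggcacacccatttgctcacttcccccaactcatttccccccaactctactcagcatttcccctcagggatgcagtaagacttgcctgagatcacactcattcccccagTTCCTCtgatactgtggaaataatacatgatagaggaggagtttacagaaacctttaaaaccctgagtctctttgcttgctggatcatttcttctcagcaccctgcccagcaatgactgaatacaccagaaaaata
No 2 matches shared a base. S100a8 held 2 PU.1 matches and 1 TATA match, S100a9 held 1 C/EBP and 1 TATA match, Wfdc17 held 1 PU.1 and 1 TATA match, and Stfa2l1 held 2 PU.1 matches. Of the other 3 members, Retnlg held 1 C/EBP match, Lrg1 1 TATA match and Cxcr2 2 PU.1 matches. Among 32851 RefSeq promoters of this length, 10.8% held the C/EBP letters, 28.3% those of PU.1 and 13.6% the TATA letters. A TATA match thus stood in 4 of the 7 members' windows. These matches describe letters and were not tested against binding or expression.

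The alarmin pair held the highest levels of the 7 genes. S100a8 (ENSMUSG00000056054, chr3:90668978-90670035, plus strand) and S100a9 (ENSMUSG00000056071, chr3:90692632-90695721, minus strand) lie close together on chromosome 3 (GENCODE, GRCm38). In spleen Ter, S100a9 averaged 10967 FPKM and S100a8 6828 FPKM, the 5th and 7th highest genes of the column. Liver Ter cells, sorted with the same gate, had 137 FPKM of S100a9 and 75.6 FPKM of S100a8. The control spleen cells had 369 and 229 FPKM of the same genes, so that the spleen Ter means were 29.7-fold and 29.8-fold higher, with no test. The column labelled MEP was far above all others, with 84794 FPKM of S100a9, its highest gene, and 32952 FPKM of S100a8. CMP had 1561 and 617 FPKM, HSC 5728 and 2657 FPKM, and CLP 7171 and 4190 FPKM, where S100a9 was again the highest gene. The HSC and CLP columns also held granule genes, at summed levels of 5006 and 5748 FPKM, and the part of other cells in them was not tested. The order of both genes was the column labelled MEP, spleen Ter, CLP, HSC, CMP, control and liver Ter, and how far neighbours in it differ beyond their spread could be judged for few of them, since most of these values have no error.

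The alarmins' libraries were recovered in liver Ter and CMP. S100a8 was 83.2 and 68.1 FPKM in the liver Ter libraries A and B, and 1008 and 225 FPKM in those of CMP. S100a9 was 153 and 121 FPKM in liver Ter and 2532 and 590 FPKM in CMP. The CMP libraries were 4.47-fold apart for S100a8 and 4.30-fold for S100a9, and all CMP values lay above those of liver Ter. In spleen Ter only 2 splits of the S100a8 mean gave whole fragments, 12115 and 1542 or 10251 and 3405 FPKM in libraries A and B. Library A was the higher in either case, and both libraries lay above both CMP libraries. S100a9 had 27 possible splits in spleen Ter and 465 in the column labelled MEP, and S100a8 had 320 there. Neither gene was therefore tested against these groups.

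Calprotectin is built from both subunits, and S100a9 was the higher transcript in every column. The ratio of S100a9 to S100a8, per length, came to 1.61 for spleen Ter, 1.81 for liver Ter, 2.53 for CMP, 2.57 for the column labelled MEP, 2.16 for HSC, 1.71 for CLP and 1.61 for the control. In the recovered libraries it was 1.84 and 1.78 in liver Ter and 2.51 and 2.61 in CMP, so that the libraries of a group differed less than these 2 groups did. The level of the ratio rests on the transcript length: the values fitted a length of 694 bases for S100a8, while its longest coding transcript has 486. The pair's share of a column's FPKM was 4.73% for spleen Ter, 0.063% for liver Ter, 0.803% for CMP and 0.153% for the control.

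**Figure D2:**
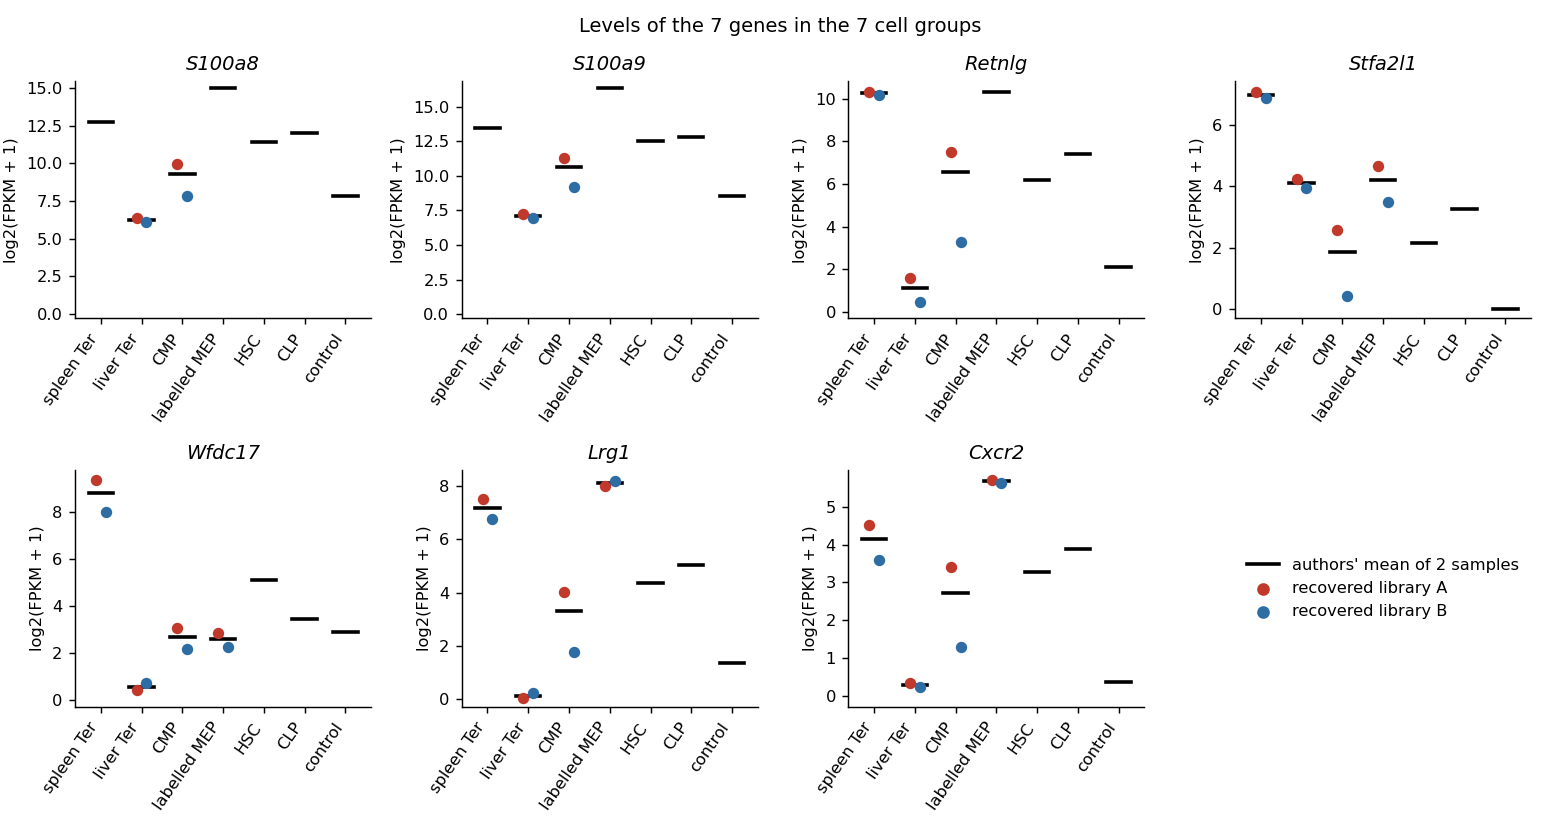
Each panel shows 1 gene as log2(FPKM + 1) in the 7 groups. Black bars are the authors' means of 2 samples, and points are recovered libraries A (red) and B (blue), drawn where they could be recovered. S100a8, S100a9, Retnlg, Lrg1 and Cxcr2 share 1 shape, with the column labelled MEP and spleen Ter at the top, while Stfa2l1 and Wfdc17 are highest in spleen Ter.

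Retnlg (ENSMUSG00000022651, chr16:48872621-48874496, plus strand) encodes resistin-like gamma, a secreted hormone-like protein of mouse myeloid cells. It was 1269 and 1155 FPKM in the spleen Ter libraries, 2.07 and 0.375 FPKM in liver Ter (36 and 4 fragments), and 178 and 8.58 FPKM in CMP. Spleen Ter lay above both other groups without overlap, and its 2 libraries were 1.1-fold apart, while those of CMP were 20.8-fold apart. The mean was 1286 FPKM in the column labelled MEP, 72.0 FPKM in HSC, 167 FPKM in CLP and 3.27 FPKM in the control. Spleen Ter and the column labelled MEP thus had near-equal means, 1212 and 1286 FPKM. With limma on log2(FPKM + 1) (Benjamini-Hochberg over all genes; a call needs an adjusted p under 0.05 and a 2-fold change), Retnlg was higher in spleen Ter than in liver Ter by 9.20 ± 1.32 log2 units (SE, adjusted p = 0.0016) and than in CMP by 4.87 ± 1.32 (adjusted p = 0.0235). This gene was fitted without the libraries labelled MEP, where 2 splits were possible. The CMP difference was 2.76 log2 units (adjusted p = 0.0162) without CMP library B, and it was not called without spleen Ter library A (adjusted p = 0.0579) or with no filter on low values (adjusted p = 0.0667). The other resistin genes were scarce: Retn was 0.446 FPKM in spleen Ter and Retnlb 1.19 FPKM, and Retnla was listed at 0.

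Lrg1 (ENSMUSG00000037095, chr17:56119678-56122001, minus strand) encodes a leucine-rich glycoprotein that is packed into neutrophil granules and binds the TGF-beta co-receptor endoglin. It was 183 and 106 FPKM in the spleen Ter libraries and 0.0259 and 0.169 FPKM in those of liver Ter, which rest on 1 and 4 fragments. The CMP libraries had 15.2 and 2.43 FPKM and the libraries labelled MEP 254 and 293 FPKM. Spleen Ter lay between these, above CMP and below the column labelled MEP, with no overlap. Lrg1 was higher in spleen Ter by 7.0 ± 0.67 log2 units against liver Ter (adjusted p = 0.000153) and by 4.23 ± 0.67 against CMP (adjusted p = 0.002). Its difference from the column labelled MEP, -0.97 ± 0.67, did not pass (adjusted p = 0.256) and was -0.57 without spleen Ter library B. Means were 19.7 FPKM in HSC, 31.8 FPKM in CLP and 1.53 FPKM in the control. Of 7 genes that LRG1 is known to act with (the TGF-beta ligand Tgfb1, its receptors and Smads), 5 were called higher in spleen Ter than in liver Ter and none lower, where 43.0% of all genes tested were called higher. Only 1 of the 7 reached 1 FPKM in liver Ter, so most entered the test through other groups and this count is no support of its own. Against CMP 1 was higher and 2 were lower (13.9% and 28.2% of all genes). Against the column labelled MEP 1 was again higher and 2 lower (23.2% and 19.4% of all genes). Eng, which encodes endoglin, was 0.148 FPKM in spleen Ter and 0.209 FPKM in liver Ter.

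Stfa2l1 (ENSMUSG00000059657, chr16:36156811-36161953, plus strand) encodes a stefin A, an inhibitor of cysteine cathepsins that lies in a cluster of near-identical genes on chromosome 16. It was 133 and 115 FPKM in the spleen Ter libraries, 16.2 ± 2.52 FPKM in liver Ter (SD, n = 2; 213 and 105 fragments), 4.95 and 0.36 FPKM in CMP (30 and 2 fragments) and 24.4 and 10.1 FPKM in the libraries labelled MEP. Spleen Ter lay above all of them without overlap. Stfa2l1 was higher in spleen Ter by 2.86 ± 0.69 log2 units against liver Ter (adjusted p = 0.00939), by 5.45 ± 0.69 against CMP (adjusted p = 0.000792) and by 2.89 ± 0.69 against the column labelled MEP (adjusted p = 0.0111). The last was not called without MEP library B (2.29, adjusted p = 0.0749). Median-of-ratios scaling lowered the liver difference to 1.65 (adjusted p = 0.0494), and the cause was not tested. HSC had 3.44 FPKM and CLP 8.47 FPKM, and the gene was listed at 0 in the control. Of the 50-base stretches of its transcript, 24.6% also occur in other genes (Stfa2 and Gm49652), so its level is uncertain. That share does not measure the error, because how shared reads were counted is not stated.

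The rest of the stefin cluster did not follow 1 pattern between the Ter groups. A stefin list that holds Stfa2l1 and the unlinked stefin B gene Cstb had 9 tested genes. Of these, 4 were called higher in spleen Ter than in liver Ter, 1 lower and 4 neither. Their median was 0.60 log2 units (0.80 for all genes tested). Of all 13047 genes tested, 43.0% were called higher and 1516 genes lower, so these counts do not set the list apart from all genes. Gm5483 was 121 and 89.3 FPKM in spleen Ter and 29.5 and 21.9 FPKM in liver Ter, and was called higher (1.99 ± 0.72, adjusted p = 0.0442). Stfa1 was 49.4 and 51.8 FPKM in spleen Ter and 64.3 and 68.8 FPKM in liver Ter, a difference of -0.39 ± 0.36 that did not pass (adjusted p = 0.374). Stfa3, at 6.59 and 1.5 FPKM in spleen Ter and 17.7 and 14 FPKM in liver Ter, was called lower (-1.94 ± 0.55, adjusted p = 0.0175). Against CMP and against the column labelled MEP, 8 of the 9 were called higher in spleen Ter (13.9% and 23.2% of all genes). Near-identical copies can share reads, so values within the cluster are uncertain.

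**Figure D3:**
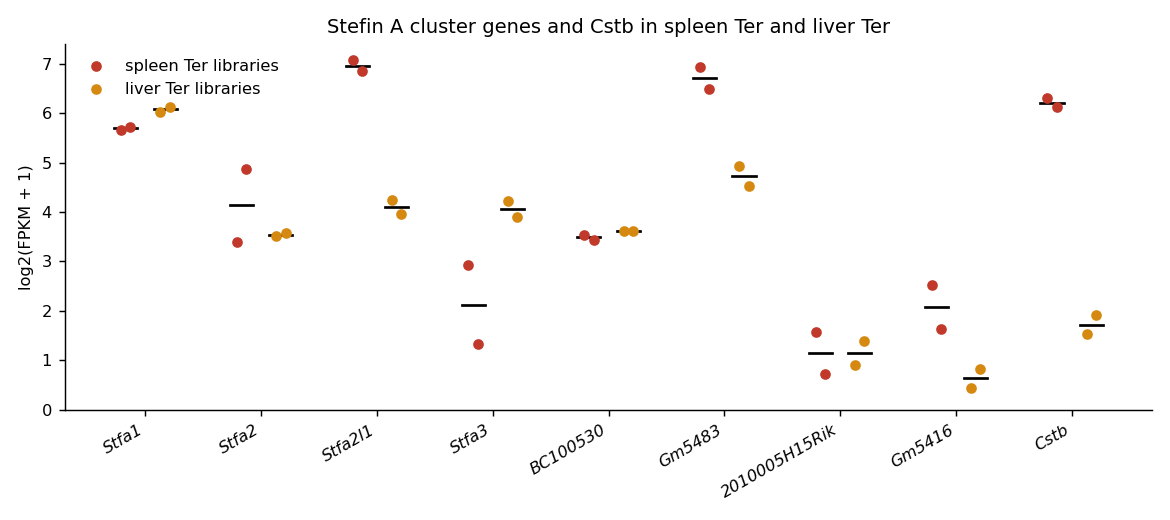
Levels of 9 stefin genes, as log2(FPKM + 1), in the recovered libraries of spleen Ter (red) and liver Ter (orange), with black bars at the mean of the log values. Stfa2l1, Gm5483 and Cstb lie higher in spleen Ter, Stfa3 lies higher in liver Ter, and Stfa1 and BC100530 are close.

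Wfdc17 (ENSMUSG00000069792, chr11:83703991-83706268, plus strand) encodes a small secreted protein with a whey acidic protein domain, a fold found in protease inhibitors, and is known in mouse from activated macrophages as well as neutrophils. It was 644 and 249 FPKM in the spleen Ter libraries, 0.329 and 0.642 FPKM in liver Ter (5 and 6 fragments), 7.43 and 3.50 FPKM in CMP and 6.17 and 3.83 FPKM in the libraries labelled MEP. Every other group was far below spleen Ter, with means of 32.8 FPKM in HSC, 10 FPKM in CLP and 6.48 FPKM in the control. Wfdc17 was higher in spleen Ter by 8.09 ± 0.51 log2 units against liver Ter (adjusted p = 2.83e-05), by 6.03 ± 0.51 against CMP (adjusted p = 0.000158) and by 6.09 ± 0.51 against the column labelled MEP (adjusted p = 0.000151). Its difference between CMP and the column labelled MEP was 0.07 ± 0.51 (adjusted p = 0.947), and the sign turned under 4 alternatives. The monocyte and macrophage list, 775 FPKM in spleen Ter and 15.1 FPKM in liver Ter, summed to 591 FPKM in CMP and 251 FPKM in the column labelled MEP. Ly6c2, a monocyte gene, made up 440 and 207 FPKM of these last sums, and the macrophage gene C1qa was at 142 FPKM in spleen Ter, 2.13 FPKM in liver Ter, 0.962 FPKM in CMP and 1.19 FPKM in the column labelled MEP. Within spleen Ter, Wfdc17 was 2.59-fold higher in library A, while the macrophage sum was 336 FPKM in A and 1215 FPKM in B. The part of such cells in the Wfdc17 level was not tested. Of 6 whey acidic protein domain genes, Wfdc17 among them, 3 were tested. All 3 were called higher in spleen Ter than in liver Ter (43.0% of all genes). The others called were Wfdc21 (6.72 ± 0.84, adjusted p = 0.000916) and the leukocyte protease inhibitor Slpi (7.42 ± 0.14, adjusted p = 2.8e-06). Only 1 of the 6 reached 1 FPKM in liver Ter, so this count is no support of its own.

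Cxcr2 (ENSMUSG00000026180, chr1:74153989-74161246, plus strand) was the least abundant member in spleen Ter. It was 22.1 and 11.1 FPKM in the spleen Ter libraries, 0.264 and 0.168 FPKM in liver Ter, 9.62 and 1.47 FPKM in CMP, and 51.3 and 48.9 FPKM in the libraries labelled MEP. Spleen Ter lay above CMP and below the column labelled MEP without overlap. The receptor was higher in spleen Ter than in liver Ter by 3.78 ± 0.65 log2 units (adjusted p = 0.00209). Its differences from CMP (1.71 ± 0.65, adjusted p = 0.0607) and from the column labelled MEP (-1.61 ± 0.65, adjusted p = 0.0727) did not pass. Both were near the threshold: the first was called under 5 of the alternatives, among them without CMP library A (2.76, adjusted p = 0.00513), and was 0.66 (adjusted p = 0.239) without CMP library B, and the second was called under 3, with an adjusted p down to 0.0257. Means were 8.7 FPKM in HSC, 13.8 FPKM in CLP and 0.292 FPKM in the control. Of the transcript's 50-base stretches, 6.68% occur in other genes.

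Of 9 ligands and related receptors of CXCR2, 4 could be tested. Against liver Ter 3 of them were called higher in spleen Ter and 1 lower. Of all 13047 genes tested, 43.0% were called higher and 1516 genes lower. Only 3 of the 9 reached 1 FPKM in liver Ter, and Cxcl2 entered the test through other groups. This count is thus no support of its own. Cxcl2 was the ligand with the highest level. It was 492 and 143 FPKM in the spleen Ter libraries, 0.0847 and 0.496 FPKM in liver Ter, 8.82 and 4.0 FPKM in CMP and 23.6 and 7.75 FPKM in the libraries labelled MEP. Cxcl2 was higher in spleen Ter by 7.71 ± 0.72 log2 units against liver Ter (adjusted p = 0.000135) and by 5.25 ± 0.72 against CMP (adjusted p = 0.00108). Ppbp, a platelet chemokine, was higher by 2.73 ± 0.41 against liver Ter (adjusted p = 0.00109), while Cxcl1 was at 0.824 FPKM in spleen Ter and Cxcl5 and Cxcl15 were listed at 0. Ackr1, an atypical receptor that binds chemokines, averaged 1.7 FPKM in spleen Ter and 47.9 FPKM in liver Ter and was the gene called lower (adjusted p = 0.000669). Cxcr4, the receptor that holds neutrophils in marrow, was 18.9 and 33.3 FPKM in spleen Ter and 104 and 88.1 FPKM in CMP, and was called lower (-1.89 ± 0.27, adjusted p = 0.00139). Cxcr2 and Cxcr4 thus stood in opposite order between spleen Ter and CMP, though only the Cxcr4 difference passed. In the other comparisons of spleen Ter both had the same sign: against liver Ter Cxcr4 was higher by 3.6 ± 0.27 log2 units, and against the column labelled MEP it differed by -1.81 ± 0.27 (adjusted p = 0.00159).

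Counted together, 5 of the 5 tested members were called higher in spleen Ter than in liver Ter, where 43.0% of all 13047 genes tested were so called. The members' median difference was 7.0 log2 units, and that of all genes tested was 0.80. Lrg1, Wfdc17 and Cxcr2 were under 1 FPKM in both liver Ter libraries and entered the test through other groups, so this count is no support of its own. Against CMP 4 of 5 were called higher (13.9% of all genes) and none lower (28.2%), with a median of 4.87 against -0.40 for all genes. Against the column labelled MEP 2 of 4 were called higher (23.2% of all genes) and none lower (19.4%). Between CMP and the column labelled MEP, 3 of 4 were called lower in CMP (7.35% of all genes) and none higher (24.3%): Lrg1 differed by -5.20 log2 units (adjusted p = 0.0013), Cxcr2 by -3.32 (adjusted p = 0.0066) and Stfa2l1 by -2.56 (adjusted p = 0.0228). Stfa2l1 was not called there without MEP library A (-1.96, adjusted p = 0.135), without CMP library B (-1.50, adjusted p = 0.0767) or with no filter on low values (adjusted p = 0.0638). The comparisons of spleen Ter share its 2 libraries.

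**Figure D4:**
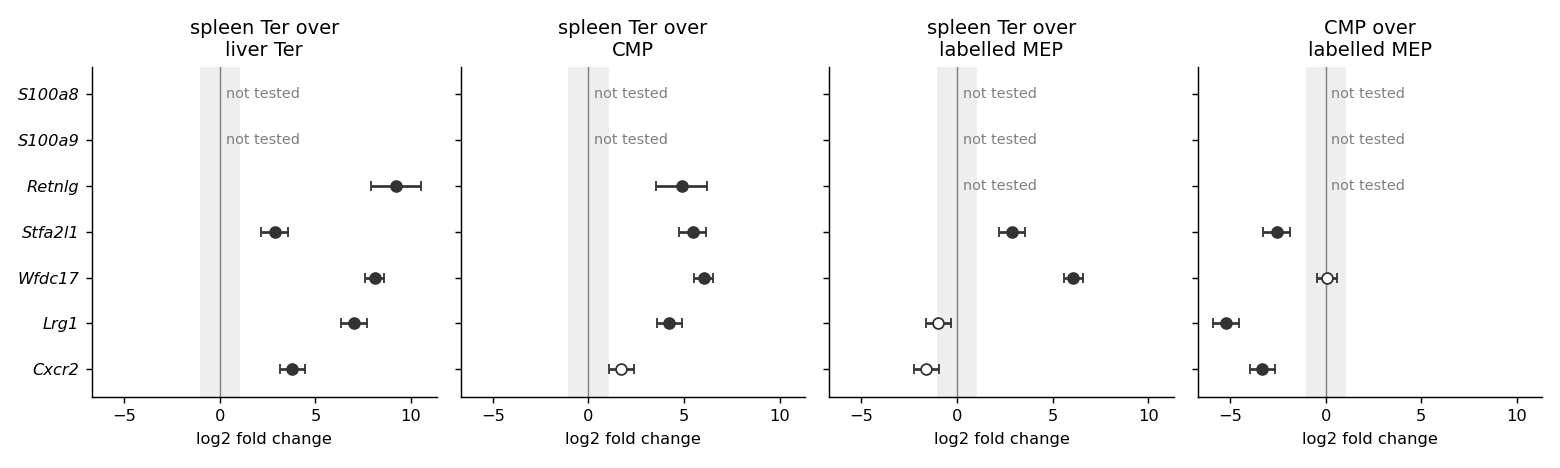
Log2 fold changes of the members on the log2(FPKM + 1) scale in the 4 tested comparisons, with bars of 1 SE. Filled points were called, open points were not, and the grey band marks changes under 2-fold. All tested members lie to the right of the band against liver Ter, and they lie on both sides of 0 against the column labelled MEP.

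The means of spleen Ter were at least 2-fold above the control for 7 of 7 members (13.5% of all genes), above HSC for 5 of 7 (14.2%) and above CLP for 4 of 7 (15.5%), with no test. None was at least 2-fold lower than in the control (28.4% of all genes), HSC (34.1%) or CLP (35.9%). The 4 members above CLP were Retnlg (7.24-fold), Lrg1 (4.54-fold), Stfa2l1 (14.6-fold) and Wfdc17 (44.6-fold), while S100a8, S100a9 and Cxcr2 were 1.63-, 1.53- and 1.21-fold higher. The digits of these 3 columns differ in kind: 27.2% of low values in spleen Ter fell on the commonest step per fragment, against 0.56% to 1.38% in control, HSC and CLP. Levels set across them carry that unknown difference in processing. Under quantile normalization, which draws the highest genes of all columns level, the alarmins turned: S100a9 was at -0.86 log2 units against HSC and -2.06 against CLP, and S100a8 at -0.74 against CLP. The counts moved upward under other scalings: median of ratios gave 7 of 7 against HSC and 6 of 7 against CLP, totals without globin genes gave 7 of 7 against HSC, and quantile normalization gave 6 of 7 against HSC.

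Other neutrophil genes gave a setting for these values. Of 24 further surface and cytokine genes, 23 were called higher in spleen Ter than in liver Ter and none lower, beside 43.0% of all genes called higher. Only 5 of the 24 reached 1 FPKM in liver Ter, so most entered the test through groups where they are high, and this count too is no support of its own. Against CMP 12 were higher and 2 lower (13.9% and 28.2% of all genes). Against the column labelled MEP, of 21 tested, 3 were higher and 9 lower (23.2% and 19.4% of all genes). Those higher against the column labelled MEP included Il1b (431 and 236 FPKM in spleen Ter, 23.6 and 7.60 FPKM in the libraries labelled MEP, 4.46 ± 0.89, adjusted p = 0.00515), which encodes the cytokine interleukin-1 beta. Those lower included Csf3r, the G-CSF receptor (34 and 47.9 FPKM in spleen Ter, 148 and 159 FPKM in the libraries labelled MEP, adjusted p = 0.000914). Of 10 tested secondary and tertiary granule genes, 8 were higher against liver Ter (43.0% of all genes) and 1 against CMP (13.9%). Of 5 tested against the column labelled MEP none was higher (23.2% of all genes) and 4 were lower (19.4%). Against CMP, 4 of 5 members and 1 of 10 granule genes were called higher, and the difference between these counts was not tested. The 10 granule genes still had a median of 1.12 log2 units, against -0.40 for all genes tested. Means of the untested granule genes Camp, Ngp, Chil3 and Lyz2 were also higher in spleen Ter (2401, 2688, 1170 and 2482 FPKM) than in CMP (182, 400, 173 and 793 FPKM). The counts thus do not show that the 2 sets differ against CMP. Of 9 partners and receptors of S100A8/A9, 8 were tested and 6 were higher against liver Ter (43.0% of all genes), among them Cd14 (5.59 ± 0.24, adjusted p = 7.69e-06) and Tlr4 (1.16 ± 0.18, adjusted p = 0.00127). Only 4 of the 9 reached 1 FPKM in liver Ter, so this count is no support of its own. Ager, which encodes RAGE, was 1.05 and 0.963 FPKM in spleen Ter and 0.278 and 0.0799 FPKM in liver Ter, a difference under 2-fold on the log2(FPKM + 1) scale.

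The 2 spleen Ter libraries gave a further contrast. Granule genes were higher in library A: Ltf was 577 FPKM there and 54.1 FPKM in library B, Ly6g 102 and 16.3 FPKM, and 8 of 10 granule genes were over 2-fold higher in A (median log2 ratio 2.59). Erythroid markers went the same way (7 of 8) and macrophage markers the other (12 of 14 higher in B). Of the 5 recovered members only Wfdc17 was over 2-fold higher in A, and Retnlg and Stfa2l1 were 1.1-fold and 1.15-fold apart. S100a8, not recovered, was higher in A by more than 2-fold under both of its possible splits, as given above, and the splits of S100a9 do not fix its direction. Among all genes, 6.19% were over 2-fold higher in A and 23.1% in B. The CMP libraries differed in another way: on the FPKM + 1 scale 6 of 7 members were over 2-fold higher in A (Wfdc17, at 0.91 log2 units, was the exception, and its FPKM ratio was 2.13), against 1.77% of all genes, together with 8 of 13 granule genes, while none of 4 primary granule genes was. The CMP mean of each member was therefore set mostly by library A.

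**Figure D5:**
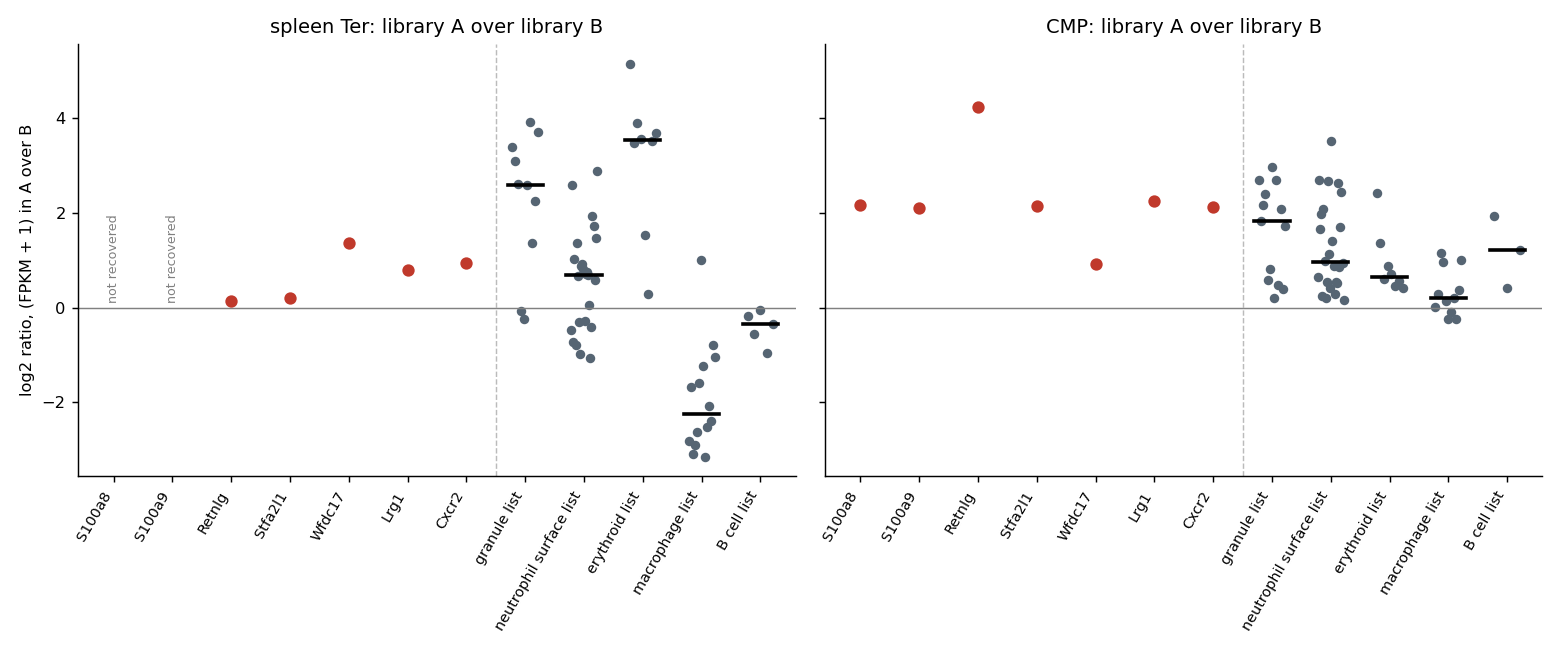
Log2 ratio of library A over library B, on FPKM + 1, for the members (red) and for genes of 5 lists (grey, black bars at the median) in spleen Ter (left) and CMP (right). In spleen Ter the 5 recovered members lie between 0.14 and 1.37, while the medians are 2.59 for the granule, 3.53 for the erythroid and -2.25 for the macrophage list, with single genes of each list outside that order, and in CMP all members but Wfdc17 lie above 2.

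The members' shared shape was also found in other genes. Each member is part of the members' mean profile, so its own r is partly built in. Over the 7 columns this profile had r of 0.987 with Lrg1, 0.979 with Retnlg and 0.954 with S100a8. It had r of 0.951 with Cxcr2 and 0.941 with S100a9, but 0.673 with Wfdc17 and 0.658 with Stfa2l1. Of 7666 other genes with at least 10 FPKM in a column, the 10 most like it were Ccr1 (0.987), C5ar1 (0.985), G0s2 (0.982), Fpr1 (0.977), Wfdc21 (0.971), Mrgpra2b (0.963), Ly6g (0.958), Camp (0.954), Hcar2 (0.948) and Lcn2 (0.947). Ccr1, C5ar1 and Fpr1 encode receptors for chemokines, complement C5a and formyl peptides. Ccr1 averaged 25.1 FPKM in spleen Ter, 0.272 FPKM in liver Ter and 26.6 FPKM in the column labelled MEP. The list depends on the settings: 6 of the 10 stayed with a minimum of 50 FPKM and 1 with the 4 recovered columns alone. These are descriptions over 7 means that differ in cell type, procedure and depth.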

How the data were processed

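RNA of 14 samples (2 in each of 7 groups) was sequenced after TruSeq library construction, per the labels' protocols. The deposited table holds the authors' mean FPKM per group. The build is mm10, per the submitters' processing notes; the sources used here name no aligner, counter or annotation. Of 49588 lines, 2 without a gene and 3 repeats were dropped. Symbols, lengths and coordinates came from GENCODE M21 (GRCm38), which holds 49324 of the 49583 genes.

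In spleen Ter, liver Ter, CMP and MEP each mean is the average of 2 whole fragment counts per length and depth. Solving for these gave 8 libraries, for 13796 (98.2%) of 14049 genes with at least 1 FPKM, at the annotated length or one found from the values. The method was tested on simulated data. No replicate number could be attached to a library.

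Libraries were compared in R 4.3.3 by limma 3.58.1 (moderated linear model with an intensity trend; 4 residual and 2.6 prior degrees of freedom) on log2(FPKM + 1), for genes with at least 1 FPKM in 2 libraries, which understates the change of low genes. Where a fit lacks unrecovered libraries, the gene's remaining groups were used. The 4 groups share 1 estimate of the spread, so p-values can be too small where the spleen Ter libraries differ. Control, HSC and CLP were only described. Named genes are the members, the members of 18 gene lists, given by counts with examples, and the 10 genes most like the members' profile. The members and lists were chosen with earlier results of these data known. Lists held 163 genes, 161 of them with a value. Alternatives covered pseudocounts, filters, scalings, eBayes without trend and each library left out.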

Additional observations from a re-analysis of the deposited data

How the results depend on the processing

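No paired analysis was possible because the deposited columns carry no replicate numbers. With each library left out in turn, the number of members called ranged from 5 to 5 against liver Ter, from 3 to 5 against CMP, from 1 to 2 against the column labelled MEP and from 2 to 3 for CMP against that column. The lowest, 1 against the column labelled MEP, came without MEP library B. Scaling, filter, pseudocount and trend moved these counts by at most 1. A fit without both libraries labelled MEP, chosen after seeing the data, again called 5 members against liver Ter and 4 against CMP. The difference of Wfdc17 between CMP and the column labelled MEP changed sign, to -0.52 when scaled by median of ratios, -0.44 after quantile normalization, -0.22 without MEP library B and -0.39 without CMP library A (leave-one-out range -0.39 to 0.52), and was called in none of the alternatives run. Of the 10 genes most like the members, 6 stayed with a minimum of 50 FPKM, which removes the genes whose highest column is under it, and 1 with 4 columns alone, which ranks over fewer columns.

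A pseudocount of 5 lowered the Cxcr2 difference between spleen Ter and liver Ter to 2.0 and that of Stfa2l1 between CMP and the column labelled MEP to -1.53, both still called.

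Counts per gene list were made in the main analysis only. Counts over all genes moved more. With a pseudocount of 5, genes called higher and lower were 2742 and 883 against liver Ter (5607 and 1516 in the main analysis), 921 and 1675 against CMP (1817 and 3681), 1462 and 1257 against the column labelled MEP (3022 and 2526), and 1311 and 487 for CMP against that column (3162 and 958). A filter of 5 FPKM gave 1992 higher against the column labelled MEP and 1086 against CMP, and leaving out spleen Ter library B gave 1949 and 1038. Leaving out MEP library A gave 635 lower in CMP than in that column. Median-of-ratios scaling moved the median of all genes against liver Ter from 0.80 to 0.08 log2 units, and the share of calls that were higher was then 52.2% against liver Ter, 57.2% against CMP and 38.8% for CMP against the column labelled MEP (78.7%, 33.0% and 76.7% in the main analysis). With quantile normalization these shares were 46.2%, 43.1% and 49.6%, and 44.4% for spleen Ter against the column labelled MEP (54.5%). Totals without globin genes gave 65.2% against liver Ter. Without spleen Ter library B the shares were 17.7% against CMP and 38.1% against the column labelled MEP. Median-of-ratios scaling gave 3511 higher and 3214 lower against liver Ter, 1859 lower against CMP, and 1180 higher and 1864 lower for CMP against the column labelled MEP; quantile normalization gave 3056 and 3565 against liver Ter and 1569 and 1597 for CMP against that column; totals without globin genes gave 2463 lower against liver Ter.

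With 2 libraries per group, and 1 to 6 fragments behind several liver Ter values, the size of differences from such values is imprecise.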

Other observations

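Other genes of the alarmin family and a list of transcription factors were also measured. Of 12 further S100 genes, 7 were tested between spleen Ter and liver Ter and all 7 were called higher in spleen Ter, with a median of 3.99 log2 units against 0.80 for all genes, of which 43.0% were called higher. S100g, at 0 in the other groups' libraries, entered the test through spleen Ter alone and S100a4 was at 0 in liver Ter. Only 2 of the 12 reached 1 FPKM in liver Ter, so most of the tested genes entered through other groups. S100a6, at 0.538 and 0.918 FPKM in the liver Ter libraries, is among them. The count is thus largely set by the filter and is no support of its own. S100a6 was the member of that list with the largest difference (6.80 ± 0.24, adjusted p = 4.86e-06), followed by S100a11 (6.37 ± 0.33, adjusted p = 3.59e-05). Against the column labelled MEP 4 of 6 were higher (23.2% of all genes), among them S100a10 (4.30 ± 0.17, adjusted p = 1.85e-05), a partner of annexin A2. S100a1 was lower (-1.30 ± 0.30, adjusted p = 0.00899), where 19.4% of all genes were. S100a6 did not pass there (0.57 ± 0.24, adjusted p = 0.0813).

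Among 10 transcription factors listed for neutrophils, 9 were called higher in spleen Ter than in liver Ter (43.0% of all genes). Only 3 of the 10 reached 1 FPKM in liver Ter, so this count is no support of its own. Irf8, Klf4 and Junb are among the 9 and were at 46.7, 86.9 and 711 FPKM in the control, so the list is not limited to neutrophils. Against CMP 2 of the 10 were higher and 4 lower (13.9% and 28.2% of all genes). Against the column labelled MEP 3 were higher and 5 lower (23.2% and 19.4% of all genes). Cebpb, the C/EBP factor of mature and activated myeloid cells, averaged 167 FPKM in spleen Ter, 0.927 FPKM in liver Ter, 19.4 FPKM in CMP and 23.2 FPKM in the column labelled MEP, and was called higher in spleen Ter in each of the 3 comparisons (6.45, 3.07 and 2.79 log2 units, with adjusted p of 4.16e-06, 8.86e-05 and 0.000119). Cebpe, which drives secondary granule genes, was 11 FPKM in spleen Ter and 287 FPKM in the column labelled MEP and was lower in spleen Ter (-5.10 ± 0.77, adjusted p = 0.00153). Cebpa, which acts in earlier myeloid progenitors, was 0.951 FPKM in spleen Ter and 60.5 FPKM in CMP and was lower in spleen Ter (-4.98 ± 0.21, adjusted p = 2.11e-05). The 2 spleen Ter libraries differed in many genes, and the p-values rest on a spread shared by 4 groups.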
